A study of Mus musculus with 9 samples.

Results

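Transcripts of Fc receptors, the proteins through which cells bind the constant part of antibodies, and of their signalling proteins were followed in RNA from sorted hippocampal cells. The 8 genes were given as a list of names, drawn up with earlier results of these data known: Fcgr1, Fcgr2b, Fcgr3, Fcgr4, Fcer1g, Fcgrt, Fcrls and Syk. All 8 were among the 51912 genes counted, and all 8 reached a mean of at least 1 CPM (counts relative to the library's total, scaled by TMM), as did 14787 genes in all. The cells came from male C57BL/6 mice that carry Cre recombinase driven by the CamkIIα promoter and were injected with rAAV5-DIO-mCherry, a virus vector that makes red fluorescent mCherry only where Cre is active. The labels name 3 doses, 2.88e+08, 2.88e+09 and 2.88e+10 vector genomes, of which the lowest served as the control, and collection 3 weeks after injection, and they give no age. The series describes 9 samples in 3 groups of 3, but the labels of the libraries, titled S1001 to S1009, state no dose. No library was therefore placed in a group, no doses were compared, and each library is given as a value of its own with no test.

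Mouse Fc gamma receptors bind immunoglobulin G. Fcgr1, Fcgr3 and Fcgr4 encode activating receptors, which sit at the cell surface together with the gamma chain encoded by Fcer1g. The cytoplasmic tail of that chain carries an ITAM, a tyrosine motif that is phosphorylated by Src-family kinases and then bound by the kinase encoded by Syk, which passes the signal on to phospholipase C, phosphoinositide 3-kinase and Vav proteins. Fcgr2b encodes the inhibitory receptor, whose ITIM recruits the phosphatase SHIP1 (gene Inpp5d). Fcgrt encodes the heavy chain of FcRn, a receptor inside the cell that pairs with beta-2-microglobulin (B2m) and returns immunoglobulin G from endosomes to the outside. Fcrls encodes an Fc receptor-like protein used as a microglial marker in the mouse. In the brain these genes are known mainly from microglia and from macrophages at its borders, and pyramidal neurons are not known as a main source.

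The 250 bases before the RefSeq start site of 4 of the genes are printed because their levels over the libraries took different forms: Fcgr1 and Fcgr3 were high in 6 libraries, Fcgr4 in 3 of them, and Fcgrt was highest in the other 3. Sequences are from RefSeq (build GRCm38.p6), 5′ to 3′ on the gene's strand, and all 8 genes matched the table by symbol. Capitals mark GAGGAA or its reverse complement, the core of the PU box bound by the myeloid factor PU.1. The window of Fcgrt holds none.
Fcgr1 (chr3:96293970-96294219, minus strand): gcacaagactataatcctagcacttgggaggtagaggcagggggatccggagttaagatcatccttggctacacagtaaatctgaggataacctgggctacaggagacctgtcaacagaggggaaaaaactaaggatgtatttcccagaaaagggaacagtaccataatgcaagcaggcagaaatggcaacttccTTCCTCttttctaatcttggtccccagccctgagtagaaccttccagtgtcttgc
Fcgr3 (chr1:171059404-171059653, minus strand): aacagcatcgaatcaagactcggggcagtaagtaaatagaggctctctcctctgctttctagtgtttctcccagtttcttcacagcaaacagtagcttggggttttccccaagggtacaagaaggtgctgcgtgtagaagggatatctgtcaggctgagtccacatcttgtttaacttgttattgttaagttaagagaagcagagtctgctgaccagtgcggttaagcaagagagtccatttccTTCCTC
Fcgr4 (chr1:171018676-171018925, plus strand): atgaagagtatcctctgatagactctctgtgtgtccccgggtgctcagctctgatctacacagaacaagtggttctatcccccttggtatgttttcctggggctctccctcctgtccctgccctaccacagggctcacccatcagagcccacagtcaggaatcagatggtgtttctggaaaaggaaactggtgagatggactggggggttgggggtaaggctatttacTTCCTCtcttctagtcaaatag
Fcgrt (chr7:45103823-45104072, minus strand): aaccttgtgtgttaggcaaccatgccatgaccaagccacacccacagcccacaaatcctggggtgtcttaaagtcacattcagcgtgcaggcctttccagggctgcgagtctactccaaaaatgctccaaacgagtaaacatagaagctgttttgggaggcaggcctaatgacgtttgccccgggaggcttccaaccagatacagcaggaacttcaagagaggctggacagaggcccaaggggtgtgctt
Searched on both strands, GAGGAA was found in 6 of 10 start-site windows of 5 of the 8 genes, against 23.3% of all 32851 windows of the same length. The 2 windows of Fcgr3 overlap and hold the same match, so it is counted at both starts. This match ended the printed window of Fcgr3, beginning 6 bases before the start, and lay 15 bases before the other start. GAGGAA began 22 bases before the start of Fcgr4, 55 before that of Fcgr1 and 144 before that of Fcrls. The fifth gene was Syk, at the second of its 2 listed starts, 9 bases before it. The matches describe letters and do not show that a factor binds there.

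Library totals ranged from 12136830 to 19151596 counts. Where a gene had no count, its level may still reach 3 counts, which is 0.158 to 0.246 CPM depending on the library; this limit and all intervals cover counting error only. No pair of libraries agreed within sampling noise. The closest were S1001, S1002 and S1003, whose pairs had a chi-square of 2.67 to 5.14 per degree of freedom, against 24.3 or more in every other pair. Each pair was compared over the genes with at least 10 counts in its 2 libraries together. Neuronal transcripts were abundant in every library, with 8 markers listed for pyramidal neurons summing to 6094 to 10921 CPM. The largest part of the sum was Snap25, at 2834 to 4530.3 CPM, which, like Rbfox3 on the list, is not particular to pyramidal neurons. The markers did not move together. Slc17a7, the vesicular glutamate transporter, ranged from 184 to 586 CPM and Nrgn from 576 to 4203 CPM, both lowest in S1004 to S1006. Tbr1 was instead highest there, at 24.5 to 32.4 CPM. Astrocyte markers summed to 78.1 to 244 CPM and those of oligodendrocytes to 28.1 to 545 CPM. Markers of microglia were also present and uneven: 13 of them summed to 13723, 12518, 13049, 5233, 4048, 4153, 72.1, 119 and 24.0 CPM in S1001 to S1009. The 8 Fc receptor genes together held 0.197%, 0.186%, 0.194%, 0.172%, 0.152%, 0.152%, 0.00109%, 0.00236% and 0.000283% of the counts in the same order. In RNA from pooled cells, more cells of a type and more RNA per cell cannot be told apart.

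Fcgr3 was the most abundant of the activating receptors. It lies on chromosome 1 (171051174 to 171064935, minus strand, mm10; ENSMUSG00000059498) and measured 538, 525, 528, 465, 380.3, 465, 3.16, 3.35 and 0.370 CPM in S1001 to S1009. Those values rest on 6561, 6829, 6924, 8832, 5515, 6396, 47, 55 and 6 counts. The first 6 libraries were thus within a narrow band and far above S1007, S1008 and S1009. Neighbours in the order of levels could not be separated by their exact Poisson 95% intervals in 4 of 8 cases, 2 of them among S1001, S1003 and S1002, the others between S1006 and S1004 and between S1008 and S1007.

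Fcgr1, the high-affinity receptor for immunoglobulin G (chromosome 3, 96282909 to 96293969, minus strand; ENSMUSG00000015947), measured 72.9, 72.0, 75.5, 45.0, 34.0, 41.3, 0.942, 0.122 and 0.185 CPM. Its levels formed 3 tiers: S1001 to S1003 were highest, S1004 to S1006 lower, and S1007 to S1009 near the limit of detection, with 14, 2 and 3 counts. Intervals of neighbours overlapped only inside these tiers.

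Fcgr4 had another form. This receptor (chromosome 1, 171018920 to 171029761, plus strand; ENSMUSG00000059089) is known in the mouse from monocytes, macrophages and neutrophils. It measured 49.3, 51.5 and 51.2 CPM in S1001 to S1003, and 1.42, 0.896, 1.60, 0, 1.04 and 0.123 CPM in S1004 to S1009. The low values rest on 27, 13, 22, 0, 17 and 2 counts, and the high ones on 601, 670 and 672, and the 0 allows up to 0.202 CPM. Its level was thus high in 3 libraries, and the libraries S1004 to S1006, where Fcgr3 stood at 380.3 to 465 CPM, lay with the lowest ones. Of the counts of Fcgr4 and Fcgr3 together, Fcgr4 held 8.39% (exact 95% interval 7.76 to 9.06), 8.93% (8.30 to 9.60) and 8.85% (8.22 to 9.51) in S1001 to S1003. In S1004 to S1006 it held 0.305% (0.201 to 0.443), 0.235% (0.125 to 0.402) and 0.343% (0.215 to 0.519). The interval was wide in S1008, at 23.6% (14.4 to 35.1), where it lay above all 6 of these. Markers of other cells stood high in the same 3 libraries: 8 monocyte and neutrophil genes summed to 58.8, 54.2 and 53.2 CPM in S1001 to S1003, mostly Ly6c2 at 49.0 to 52.8 CPM, and to 0 to 0.581 CPM in the other libraries, where Ly6c2 had no counts. Ccr2, a monocyte gene on that list, measured 0.915 to 2.05 CPM in S1001 to S1003 and 0 to 0.363 CPM in the others. S100a8 and S100a9, also on that list, ranged from 0 to 0.0768 and from 0 to 0.0820 CPM. The sum, mostly Ly6c2, thus need not stand for monocytes or neutrophils. The 7 dendritic cell markers summed to 215, 218 and 227 CPM in S1001 to S1003 and 6.96 to 43.7 CPM in the others, mostly Siglech at 149 to 161 CPM and Itgax at 52.5 to 55.5 CPM in the first 3. Siglech is also on the list of ITAM receptors and measured 149, 154, 161, 22.7, 32.8 and 15.0 CPM in S1001 to S1006. The microglial marker P2ry12 measured 211, 245, 231, 43.0, 44.3 and 40.6 CPM there, so the sum need not stand for dendritic cells. The dendritic cell markers did not move together: Flt3 was lower in S1001 to S1003, at 2.38 to 3.35 CPM, than in the others, at 4.05 to 7.55 CPM, and Xcr1 and Clec9a were at most 0.384 and 0.183 CPM. T and NK cell markers summed to 23.6, 25.6 and 24.6 CPM in S1001 to S1003, against 0.727 to 3.23 CPM in the others. The part of these markers in the level of Fcgr4 was not tested.

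**Figure D1:**
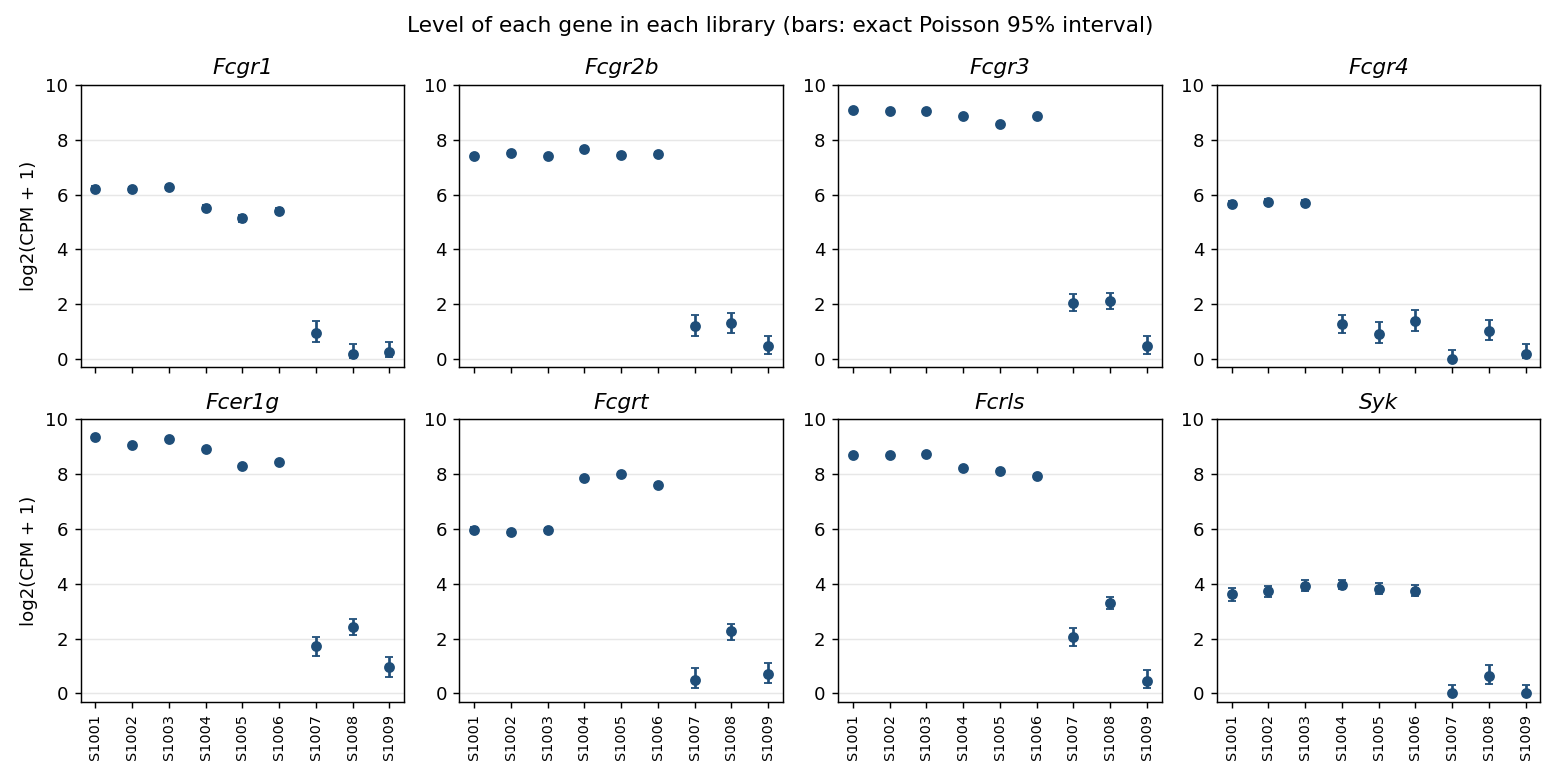
Level of each of the 8 genes, as log2(CPM + 1) on the vertical axis, in libraries S1001 to S1009 on the horizontal axis; points are single libraries and bars are exact Poisson 95% intervals of the count. Fcgr4 is high in S1001 to S1003 only, Fcgrt is highest in S1004 to S1006, and the other 6 genes are high in all of S1001 to S1006 and low in S1007 to S1009.

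Fcgr2b, the inhibitory receptor, varied little over the first 6 libraries. It lies on chromosome 1 (170958617 to 170976547, minus strand; ENSMUSG00000026656) and measured 169.7, 182, 167, 203, 175, 179, 1.28, 1.46 and 0.370 CPM. Its highest value was in S1004 and its lowest in S1009, with overlapping intervals in 6 of 8 neighbouring pairs, including all but the first step within S1001 to S1006. Fcgr2b and Fcgr3 share sequence. Of 1733 distinct stretches of 50 bases in the annotated Fcgr3 transcripts, 9.58% also occur in Fcgr2b, and 2.92% of the 5685 stretches of Fcgr2b occur in Fcgr3. Fcgr2b shares more with annotated genes as a whole, 6.95% of its stretches. The sources used here do not say how reads in these stretches were counted, so the division of counts between this pair, and between Fcgr2b and the other genes it shares stretches with, is uncertain. None of the other 6 genes shared such a stretch with any annotated gene. Annotated genes overlap Fcgr2b, Fcgr3, Fcgr4 and Fcgrt, and each of these overlapping genes had 0 counts in every library.

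Levels of different receptors can be compared only per length, for which the deposited FPKM (fragments per kilobase of transcript, scaled to library size) was used. In the 6 libraries in which each of the 8 genes had at least 10 counts, Fcgr3 made up 76.2%, 75.1%, 75.5%, 83.3%, 83.2% and 84.8% of the summed FPKM of the 4 Fc gamma receptors in S1001 to S1006. Fcgr4 made up 9.65%, 10.2%, 10.1%, 0.351%, 0.273% and 0.401%, and Fcgr2b 7.21%, 7.83%, 7.18%, 10.9%, 11.5% and 9.80%. Fcgr3 was the largest share in each of these libraries, and Fcgr3 and Fcgr2b both held larger shares in S1004 to S1006, where Fcgr4 held the least. The ratio of activating receptors (Fcgr1, Fcgr3 and Fcgr4) to Fcgr2b in FPKM was 12.9, 11.8, 12.9, 8.17, 7.69 and 9.21. All 3 values of S1001 to S1003 were higher than those of S1004 to S1006, and the highest was 1.68 times the lowest. With counts not divided by length the ratios were 3.89, 3.55, 3.91, 2.52, 2.37 and 2.83, in which the same 3 libraries were the highest. The shares and the size of the ratio thus depend on the gene lengths behind the FPKM. The sources used here do not state these lengths, but counts and FPKM together imply a larger one for Fcgr2b than for Fcgr3. In S1001, 2071 counts of Fcgr2b gave an FPKM of 29.47, and 6561 counts of Fcgr3 gave 311.4. A larger length lowers the share of Fcgr2b and raises the ratio. A ratio that keeps the similar pair together, Fcgr1 and Fcgr4 over Fcgr2b and Fcgr3, was 0.199, 0.206, 0.210, 0.0611, 0.0556 and 0.0576. In S1007 to S1009 the 4 receptors had 80, 98 and 17 counts together, too few to describe their make-up.

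**Figure D2:**
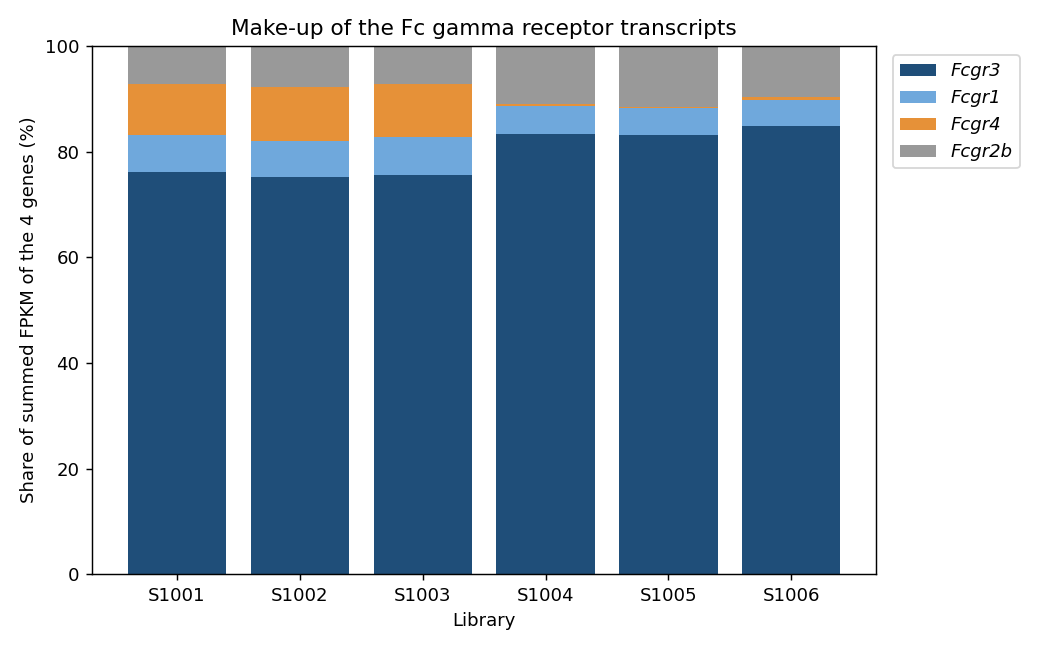
Share of Fcgr3, Fcgr1, Fcgr4 and Fcgr2b (colours) in the summed deposited FPKM of these 4 genes, in percent on the vertical axis, in the 6 libraries where each of the 8 genes had at least 10 counts. Fcgr4 takes 9.65% to 10.2% in S1001 to S1003 and 0.273% to 0.401% in S1004 to S1006.

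Fcer1g, the gamma chain shared by the activating receptors (chromosome 1, 171229572 to 171234365, minus strand; ENSMUSG00000058715), measured 649, 540.5, 616, 477, 315, 343, 2.29, 4.39 and 0.924 CPM. No neighbouring libraries in this order had overlapping counting intervals. S1001 to S1003 were highest, and S1009 was lowest with 15 counts. Per length it exceeded the 3 activating receptors together, with an FPKM 1.97, 1.67, 1.89, 1.91, 1.55 and 1.38 times their sum in S1001 to S1006. Other receptors also use this chain, and its level cannot be divided among them here.

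Syk (chromosome 13, 52583173 to 52648792, plus strand; ENSMUSG00000021457) had the lowest mean level in CPM of the 8 genes. It measured 11.2, 12.2, 14.3, 14.6, 13.1, 12.4, 0, 0.548 and 0 CPM, on 137, 159, 188, 278, 190, 171, 0, 9 and 0 counts. S1001 to S1006 formed a chain in which all 5 neighbouring pairs had overlapping intervals. The 0 in S1007 and S1009 allows up to 0.202 and 0.185 CPM by the limit of 3 counts, and up to 0.248 and 0.227 CPM by the wider exact 95% interval. Of the counts of Syk and Fcer1g together, Syk held 1.70% (exact 95% interval 1.43 to 2.01), 2.21% (1.88 to 2.58) and 2.27% (1.96 to 2.62) in S1001 to S1003. In S1004 to S1006 it held 2.97% (2.64 to 3.34), 4.00% (3.46 to 4.59) and 3.50% (3 to 4.05), above each of the first 3 intervals. In S1008 it held 11.1% (5.21 to 20.0) on 9 and 72 counts.

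Fcgrt, the heavy chain of FcRn, had another order of libraries than the activating receptors. It lies on chromosome 7 (45092990 to 45103851, minus strand; ENSMUSG00000003420) and measured 61.7, 57.6, 60.7, 230.5, 253, 194, 0.404, 3.78 and 0.616 CPM. The 3 highest libraries were S1005, S1004 and S1006, with no overlap of counting intervals among them, and S1001 to S1003 lay between these and the 3 lowest. Of the counts of Fcgrt and Fcgr3 together, Fcgrt held 10.3% (exact 95% interval 9.61 to 11), 9.90% (9.23 to 10.6) and 10.3% (9.64 to 11) in S1001 to S1003, and 33.1% (32.3 to 34.0), 40.0% (39.0 to 41.0) and 29.5% (28.6 to 30.4) in S1004 to S1006. On 62 and 55 counts, the share in S1008 was higher still, at 53.0% (43.5 to 62.3), and S1009, with 10 and 6 counts, had 62.5% (35.4 to 84.8). Its partner B2m had another order, at 3934, 3723, 3977, 694, 596, 566, 94.8, 95.1 and 120.2 CPM. Border macrophage markers were highest where Fcgrt was: 9 of 9 listed genes were measured at 1 CPM or more on average and summed to 486, 480.4, 489, 2589, 1881, 2183, 4.91, 18.8 and 2.71 CPM. Mrc1, the mannose receptor, ranged from 0.431 to 423 CPM. Endothelial cells also use FcRn. The 6 endothelial markers summed to 20.0 to 44.1 CPM, mostly Itm2a at 19.4 to 43.1 CPM, with Pecam1 and Flt1 at most 2.38 and 1.61 CPM and Cldn5 and Cdh5 at most 0.138 and 0.158 CPM. The part of these markers in the level of Fcgrt was not tested.

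Fcrls (chromosome 3, 87250758 to 87263738, minus strand; ENSMUSG00000015852) measured 409.9, 419, 420.4, 299.6, 279, 245, 3.16, 8.77 and 0.370 CPM. S1001 to S1003 had overlapping intervals, the next 3 were lower and separate from each other, and S1008 was the highest of the remaining libraries, on 144 counts. Other receptors of the Fc family were scarce. Of 12 further genes, 3 reached a mean of 1 CPM, and Ms4a2, the beta chain of the high-affinity immunoglobulin E receptor, had no count in any library. Fcer1a, the alpha chain of that receptor, ranged from 0 to 0.276 CPM. The 5 mast cell markers summed to 61.8 to 149 CPM, nearly all of it Kit at 61.5 to 149 CPM. Of the others, the protease gene Cma1 had no count, and Cpa3, Mcpt4 and Tpsb2 were at most 0.185, 0.307 and 0.135 CPM. The sum thus need not stand for mast cells. Trim21, a cytosolic receptor for antibody, measured 10.7, 10.7, 9.23, 5.37, 4.28, 4.22, 0.135, 0.244 and 0 CPM. Fcrl1, known from B cells, measured 5.41, 2.61 and 4.19 CPM in S1001 to S1003 and 0 to 0.872 CPM in the others.

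As a measure of spread, the log2(CPM + 1) of the second lowest library was subtracted from that of the second highest, which leaves out the lowest and the highest library. All 8 genes passed 2-fold, against 26.4% of the 14787 genes that averaged 1 CPM or more. At 16-fold 7 of 8 passed, all but Syk, against 3.25% of all genes. The median spread was 6.50 for the 8 genes and 0.66 for all genes. Fcer1g had the widest spread of the 8, at 7.55 or 188-fold, and ranked 40 of 14787, followed by Fcgrt at 7.16, Fcgr3 at 6.99, Fcrls at 6.66, Fcgr2b at 6.33, Fcgr1 at 5.96, Fcgr4 at 5.54 and Syk at 3.94. The lower end of each spread rests on few counts. Without S1007 or without S1009 the spread became 115-fold for Fcer1g, 48.5-fold for Fcgrt against 143-fold, 42.8-fold for Fcrls against 101-fold, 27.5-fold for Fcgr4 against 46.5-fold and 9.92-fold for Syk against 15.3-fold. Without S1008 or without S1009 that of Fcgr1 became 38.1-fold, against 62.4-fold. The genes were put on the list with earlier results of these data known, so these counts describe them and are no independent evidence that the family varies.

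**Figure D3:**
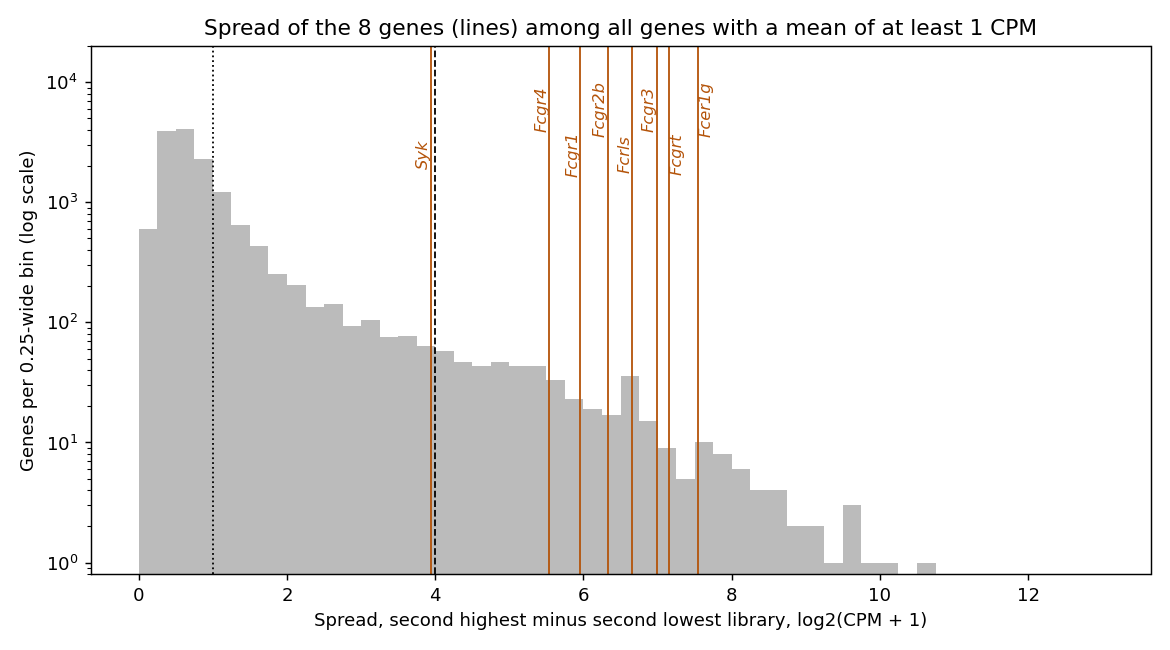
Number of genes (vertical axis, log scale) by spread over the libraries in log2(CPM + 1) (horizontal axis; second highest minus second lowest), for the 14787 genes that averaged 1 CPM or more. Lines mark the 8 named genes, all right of the dotted line at 2-fold and, except for Syk, right of the dashed line at 16-fold.

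Markers of microglia varied over the same libraries, so each gene was also set against them, as CPM per 1000 CPM of the 13 markers. All 13 reached a mean of 1 CPM and none was at 0 throughout, but they did not move together: Tmem119 measured 226, 224, 238, 1.84, 4.00, 2.47, 3.50, 2.44 and 0.247 CPM, and Csf1r 473, 461, 466, 332, 351, 237, 3.63, 11.8 and 0.863 CPM. On this relative scale Fcgr3 measured 39.2, 41.9, 40.5, 88.8, 94.0 and 112 in S1001 to S1006, and Fcer1g 47.3, 43.2, 47.2, 91.2, 77.7 and 82.6. Both were therefore higher relative to the markers in S1004 to S1006, the reverse of their plain levels. Fcgr2b had the same form, at 12.4, 14.6, 12.8, 38.8, 43.3 and 43.2. Fcgr4 measured 3.59, 4.11, 3.93, 0.272, 0.221 and 0.385, and kept its order. Fcgrt measured 4.5, 4.6, 4.65, 44.0, 62.6 and 46.8. The highest of these 6 libraries was 18.6 times the lowest for Fcgr4, 13.9 times for Fcgrt and 1.87 to 3.96 times for the other 6 genes. The C1q genes C1qa, C1qb and C1qc made up 69.7% to 85.3% of the marker sum, and without them the highest was 23.1 times the lowest for Fcgrt, 11.2 times for Fcgr4 and 3.50 to 6.48 times for the other 6 genes. At least 2-fold was reached by 7 of 8 genes and by 96.5% of all 13918 genes with 10 counts in each of the 6 libraries, so this count is no result about the family. Without the C1q genes all 8 reached 2-fold, as did 98.9% of all these genes. With border macrophage markers added to the sum, 4 of 8 reached 2-fold, against 87.3% of all these genes, namely Fcgr4 at 26.2, Fcgrt at 9.84, Syk at 2.80 and Fcgr2b at 2.48 times. The part of either cell type in these levels was not tested.

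**Figure D4:**
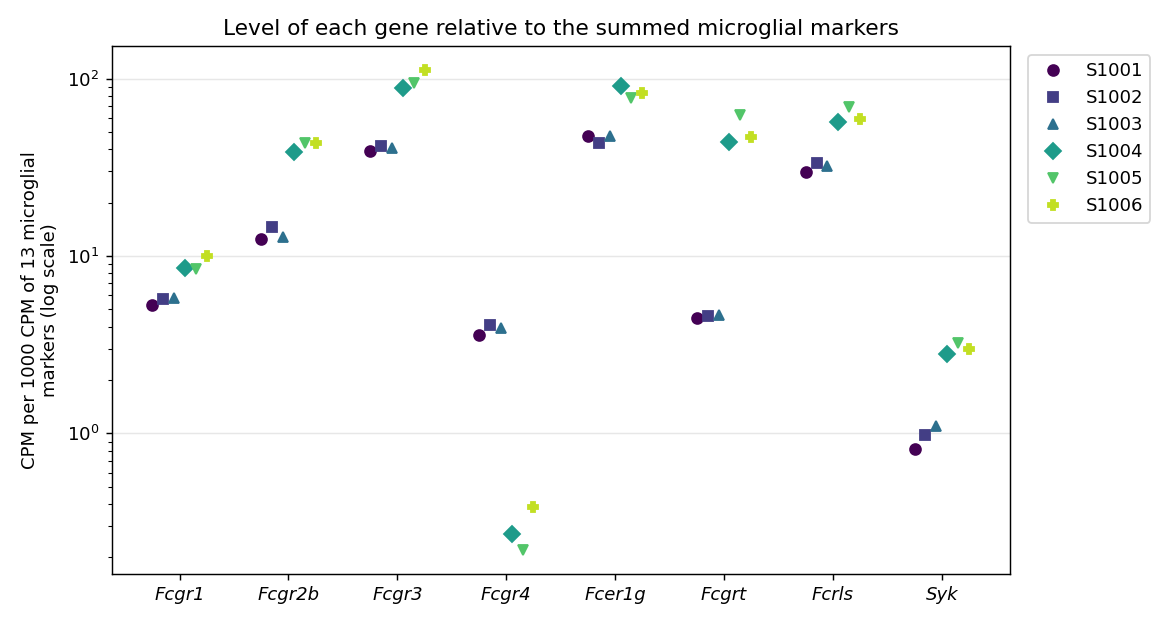
Level of each of the 8 genes relative to microglial markers (CPM per 1000 CPM of 13 summed markers, log scale on the vertical axis) in S1001 to S1006, each with its own symbol. Fcgr4 lies at 3.59 to 4.11 in S1001 to S1003 and 0.221 to 0.385 in S1004 to S1006, while Fcgrt lies at 4.50 to 4.65 and 44.0 to 62.6.

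Genes that act with the receptors were taken from lists. Of 29 genes of activating signalling, all reached 1 CPM, 25 passed 2-fold and 9 passed 16-fold, against 26.4% and 3.25% of all genes, with a median spread of 3.12. Lyn, a Src-family kinase that phosphorylates ITAMs, measured 104, 112, 108, 34.8, 21.8, 32.6, 0.740, 0.731 and 0.185 CPM. Rac2, a GTPase of blood cells, ranged from 0.0616 to 78.8 CPM. Fyn, a Src-family kinase that neurons also express, ranged from 50.5 to 172 CPM, and Grb2, an adaptor, from 58.3 to 132 CPM. Both were lowest in S1004 to S1006 and passed 2-fold, with spreads of 1.53 and 1.07. A pair of genes picked for their values had the form of Fcgr4. Lat2, an adaptor of leukocytes, measured 44.7, 39.5 and 39.0 CPM in S1001 to S1003 and 0 to 0.621 CPM in the others, and Fgr, a Src-family kinase of myeloid cells, 11.3, 11.4 and 11.5 CPM against 0 to 0.474 CPM.

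On the inhibitory list 17 of 17 genes reached 1 CPM, 14 passed 2-fold and 6 passed 16-fold. The shares of all genes were 26.4% and 3.25%, and the median spread of the list was 3.10. Inpp5d, the phosphatase that Fcgr2b recruits, belongs to that list and measured 55.6, 52.6, 58.0, 23.3, 23.7, 17.3, 1.28, 1.04 and 1.17 CPM. Its levels in S1004 to S1006 were lower than in S1001 to S1003, where Fcgr2b was about even. Ptpn6, which encodes the phosphatase SHP-1, measured 149, 137, 145, 66.2, 48.1, 45.5, 0.807, 0.487 and 0.0616 CPM. Sirpa, which neurons also express, ranged from 211 to 509.6 CPM, and Cd300a, an inhibitory receptor of myeloid cells, from 0.0616 to 55.6 CPM. Dok2, an adaptor picked for its values, was highest in S1004 at 23.5 CPM and measured 1.61 to 2.44 CPM in S1001 to S1003.

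On the list named for ITAM adaptors and receptors that use them, 11 of 17 genes reached 1 CPM, 10 passed 2-fold and 9 passed 16-fold. The name does not hold for every gene counted: the adaptor gene Hcst and the receptor gene Clec4a2 are not known to signal through an ITAM. Among all genes 26.4% and 3.25% passed, and the median spread of the list was 6.73. Tyrobp, the other ITAM adaptor of myeloid cells, measured 885, 662, 795, 404, 287, 275, 1.82, 6.76 and 0.801 CPM. Trem2, a lipid receptor that signals through Tyrobp, measured 620.2, 539, 563, 118, 82.8, 87.1, 1.82, 4.08 and 0.493 CPM. Clec4n, the receptor Dectin-2, which pairs with the Fcer1g chain, was picked for its values and measured 26.4, 29.3, 29.6, 137, 94.1, 147, 0.202, 0.365 and 0.123 CPM, highest in the same 3 libraries as Fcgrt. Antibody genes, which include those of the immunoglobulin G ligands, were high in S1001 to S1003: 11 genes summed to 6877, 7109.5, 7139, 92.2, 82.8, 77.2, 15.8, 5.18 and 6.10 CPM. The sum also holds Ighm, Igha, Ighe and Jchain, which encode no part of immunoglobulin G. In S1004 to S1006 the sum was mostly Ighm, the heavy chain of immunoglobulin M, at 89.9, 79.1 and 76.4 CPM. Of the immunoglobulin G heavy chains, Ighg2c measured 1473, 1517 and 1565 CPM in S1001 to S1003 and 0.0727 to 0.896 CPM in the others. Igkc, the kappa light chain, was at most 0.853 CPM in S1004 to S1009, and Alb, albumin, the other ligand of FcRn, ranged from 0 to 0.246 CPM. The 8 antibody genes at 1 CPM all passed 16-fold, against 3.25% of all genes, but the division of counts among such closely related genes is uncertain. The sum of 7 B and plasma cell markers was also highest there, at 55.2 to 63.7 CPM in S1001 to S1003 and 0 to 9.68 CPM in the others. Tnfrsf17, a plasma cell marker on that list, was instead highest in S1004 to S1006, at 3.13 to 6.21 CPM against 2.29 to 3.11 CPM in S1001 to S1003.

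**Figure D5:**
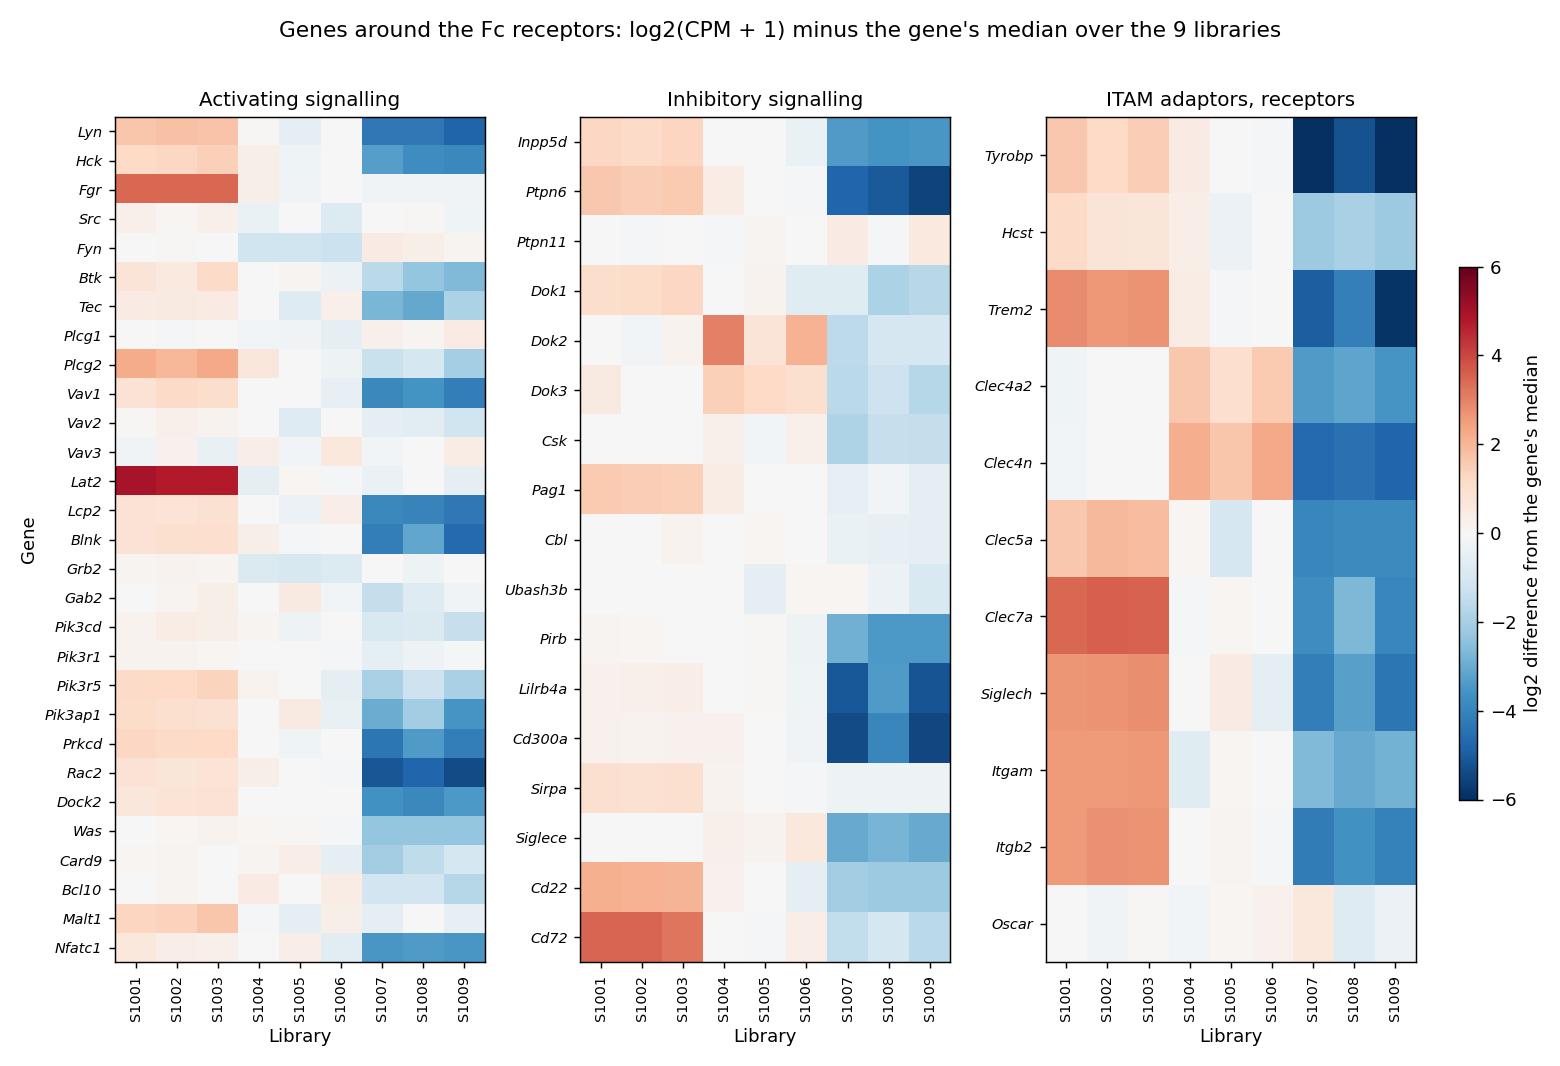
Heat maps of the genes that averaged 1 CPM or more on the lists of activating signalling, inhibitory signalling, and ITAM adaptors and receptors, with genes in rows and libraries S1001 to S1009 in columns; colour is log2(CPM + 1) minus the gene's median over the 9 libraries. Most rows are lowest in S1007 to S1009, Lat2 and Fgr stand out in S1001 to S1003, and Clec4n, Clec4a2 and Dok2 are highest among S1004 to S1006.

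The genes most like each receptor were found as those with the smallest root mean square difference over the 9 libraries between log2(CPM + 1) profiles centred on their medians, among 9631 other genes averaging 10 CPM or more. This measure depends on the level of a gene as well as its form, because low values are compressed. Fcrls was closest to Csf1r, the receptor for macrophage growth factors, at 0.15, and next to Cyba, a subunit of the phagocyte oxidase, at 0.29. Fcgr2b was close to Rnase4, a secreted ribonuclease, at 0.17. Fcgrt was closest to Ms4a4a and to Cd163, a haemoglobin scavenger receptor of border macrophages, both at 0.17. Cd163 measured 44.5, 38.4, 37.7, 135, 193, 117, 0.135, 1.71 and 0.0616 CPM. Fcgr1 was closest to Nckap1l, an actin regulator of blood cells, and Tgfbr2, a receptor of TGF-beta, both at 0.23. Fcer1g was closest to C1qc, a subunit of complement C1q, at 0.37 and to the lysosomal protease gene Ctsh at 0.38. Fcgr3 had no neighbour nearer than Zfp36, a regulator of mRNA decay, at 0.49 and C1qc at 0.57. Fcgr4 was closest to Hcar2, a receptor for hydroxycarboxylic acids, at 0.36 and to Csf1, a macrophage growth factor, at 0.40. Hcar2 measured 50.2, 48.9, 53.1, 2.05, 1.17, 1.31, 0, 0 and 0.0616 CPM. Syk was closest to Rab3il1 at 0.15 and Ddx60 at 0.19. Among the 8 genes themselves the closest pair was Fcer1g and Fcrls at 0.49, and Fcgr4 stood farthest from the rest, at 2.96 to 4.47. The median of Fcgr4, 1.42 CPM, fell among its low values. Those of the other genes, 12.2 to 465 CPM, fell at levels of S1001 to S1006, so part of these distances comes from the centring.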

How the data were processed

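RNA of 9 libraries of sorted hippocampal cells was sequenced. The submitters' processing notes name build mm10 and the tools HISAT2 2.0.1, HTSeq 0.6.1, Trimmomatic 0.30 and bcl2fastq 2.17.1.14; no source used here states their roles, parameters, strand setting or annotation release. Each table holds, per the file headers, 1 raw count and 1 FPKM per gene, both made by the authors. Over 5443 genes, count over FPKM relative to S1001 departed from the libraries' relative totals by at most 0.174%. The tables carry a letter and number that no label explains, and groups were not formed from them. Replicate numbers 1 to 9 name S1001 to S1009 only.

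CPM was computed from the counts and TMM factors (edgeR 4.0.16, R 4.3.3), and log2 values used a pseudocount of 1 CPM. GENCODE release M21 supplied gene symbols and positions and matched 99.46% of the identifiers. Intervals are exact Poisson or exact binomial at 95%. Python 3.11.15, numpy 2.4.6, pandas 2.3.3, scipy 1.17.1 and matplotlib 3.10.9 were used, and the spread and likeness functions were tested on simulated data. Named genes are the 8 genes, in each list the 2 with the highest mean and the 2 with the widest spread, further Fc receptors, and the 2 genes most like each of the 8, of which 1 is not reported here; other genes of the lists and of the cell type markers were named after their values were seen. The genes and lists were chosen with earlier results of these data known. Alternatives were other scalings (total counts, DESeq2 1.42.0 size factors), pseudocounts, minimum levels, the full range, leaving out libraries, and other ratios and marker sums.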

Additional observations from a re-analysis of the deposited data

How the results depend on the processing

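All 8 genes passed 2-fold under every alternative except the minimum mean of 10 CPM, which left 7, since Syk is below it. At 16-fold 7 passed (3.25% of all genes), 8 with a pseudocount of 0.5 CPM (4.48%), 5 with one of 5 CPM (1.18%), and 6 (1.86%) without S1002 and S1003 together, a setting added once the data had been seen, under which the spread of Fcgr4 was 1.21 on the log2 scale, since S1001 was then the only library at a high level and the spread leaves out the highest. Leaving out each library in turn gave 8 to 8 and 7 to 7 genes. Of all genes, 3911 passed 2-fold, 1955 with a pseudocount of 5 CPM, 7771 with the full range, 1770 with a minimum mean of 10 CPM, and 3204 to 3661 without each library in turn. The highest ratio of activating to inhibitory receptors was 1.68 times the lowest, and 3.78 times for Fcgr1 and Fcgr4 over Fcgr2b and Fcgr3. Genes at least 2-fold apart relative to microglial markers numbered 7 of 8 (96.5% of all genes), 8 without the C1q genes (98.9%) and 4 with border macrophage markers added (87.3%). Levels in S1007 to S1009 rest on at most 144 counts. No paired analysis was possible because the labels give no library a group.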

Other observations

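Whether the libraries fall into separate clusters was described by the widest gap in the ordered log2(CPM + 1) values of a gene. For 7 of the 8 genes this gap lay below the same 6 libraries, S1001 to S1006. It measured 4.17 for Fcgr1, 6.10 for Fcgr2b, 6.45 for Fcgr3, 5.87 for Fcer1g, 3.62 for Fcgrt, 4.65 for Fcrls and 2.98 for Syk. For Fcgr4 it lay below S1001 to S1003, at 4.27. Among 9646 genes averaging 10 CPM or more, which leave out Syk and hold 6 of these 7 genes as well as Fcgr4, 443 (4.59%) had a widest gap of at least 2-fold below S1001 to S1006, and 163 (1.69%) below S1001 to S1003. A widest gap below S1004 to S1006 was found for 10 genes (0.104%). The 8 genes differed within S1001 to S1003 by a root mean square of 0.12 on the log2 scale in each pair, within S1004 to S1006 by 0.24 to 0.32, and within S1007 to S1009 by 0.93 to 1.47, where counts are lowest.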
